A study of Mus musculus with 6 samples.

Results

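Clade B serpins are protease inhibitors that stay inside the cell. Of the 29 rows with a Serpinb symbol in the expression table, 7 are described here: Serpinb9, Serpinb9b, Serpinb6a and Serpinb6b, which belong to mouse subfamilies that block granzymes and related serine proteases, the neutrophil protease inhibitor Serpinb1a, the plasminogen activator inhibitor Serpinb2, and Serpinb8. They were found by symbol in a table of 78317 genes, and the list was selected with the measured change of Serpinb9 and other results of the same comparison known. The differences between groups of these 7 genes are therefore given as a description, with standard errors but without p-values.

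RNA was sequenced from MCEC, an immortalised line made from mouse cardiac endothelium, in 2 groups of 3 libraries. The Fat4 knockdown group has the genotype ShFat4, a short hairpin RNA against the giant cadherin Fat4, and the control group is labelled wild type. The study places the comparison in the context of tumour vessels and tumour immunity. The sources used here do not give whether the controls carried a hairpin of another sequence, how many hairpins or clones were used, or whether the 3 libraries of a group were grown apart. Errors and p-values therefore cover the spread among these libraries, and that spread may be technical.

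A serpin offers its target protease a reactive loop as bait. When the protease cuts the loop, the serpin changes shape and holds the protease in a covalent, inactive complex, so that both molecules are consumed. Cytotoxic T cells and natural killer cells kill by delivering granzymes through perforin pores, and cells that carry the matching clade B serpin can neutralise granzyme that reaches their cytosol. In the mouse, Serpinb9 inhibits granzyme B, Serpinb9b inhibits granzyme M and Serpinb6b inhibits granzyme A. Mouse genomes hold many tandem copies of these genes on chromosome 13, where humans have a single gene of each kind, and a second group that includes Serpinb2 and Serpinb8 lies on chromosome 1.

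Total counts were 10509069 to 11538010 in the knockdown libraries and 10305810 to 11870091 in the control libraries. Fat4 (ENSMUSG00000046743), the targeted gene, had 0.76, 0.98 and 0.82 CPM (counts scaled to a common library total by TMM) in the knockdown libraries, against 0.97, 1.94 and 2.56 CPM in the controls. The log2 fold change of Fat4 was -1.17 with an SE of 0.35 (adjusted p = 0.0330 in edgeR), but control replicate 1 lay within the knockdown range. With control replicate 1 left out, Fat4 was at -1.44 (edgeR adjusted p = 0.00213), and with any other single library left out it missed the threshold, at adjusted p-values of 0.0809 to 0.205. With all libraries, Fat4 also missed the threshold in limma-voom (adjusted p = 0.0674) and in edgeR after correction for GC content and length (adjusted p = 0.0605). Of 12 endothelial markers, 9 lay under 1 CPM in both groups and 5 had no count at all (Tie1, Vwf, Erg, Cldn5 and Emcn), so the labelled cell type is not borne out by its defining transcripts. Their summed level was 28.3 to 36.5 CPM in knockdown and 41.2 to 43.8 CPM in control libraries, carried by the 3 tested markers Eng, Flt1 and Egfl7. Eng and Flt1 fell (edgeR adjusted p = 0.0195 and 0.00743), and Egfl7 had 7.38 ± 0.78 CPM in knockdown and 7.24 ± 0.29 CPM in control libraries (SD, n = 3; adjusted p = 0.890 in edgeR). All 8 mesothelial markers were tested and sum to 1462 to 1510 CPM in knockdown and 1649 to 1743 CPM in control libraries, with Upk3b, Wt1 and Lrrn4 lower (edgeR adjusted p = 0.000366, 0.0404 and 0.000106). The other 5 did not pass. Their log2 fold changes were 0.001 for Upk1b, -0.09 for Msln, -0.06 for Krt19, 0.58 for Krt8 and 0.17 for Krt18. Over all 13372 tested genes, 8.44% were lower at an adjusted p under 0.05. The marker calls were not followed with single libraries left out or under other settings. In bulk RNA, fewer cells of a type and less RNA per cell cannot be told apart.

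The start regions of the 4 members with the largest fold changes are shown, so that the letters these genes do and do not have in common can be seen. The windows cover 250 bases before and 50 bases after the start annotated by RefSeq (build GRCm38.p6), written 5′ to 3′ on the gene's strand, and 6 of the 7 genes had at least 1 window (8 in all; Serpinb1a had none). Both strands were searched for the AP-1 site, written TGANTCA. The site of TEAD factors, the DNA-binding partners of YAP, was written GGAATG. The promoter element of the TATA box was written TATAAA, and the paired core of interferon-response elements GAAANNGAA. The NF-kappaB motif was searched by its usual consensus. Capitals mark every match, and no matches overlap. Serpinb9 is chr13:33004291-33004590 on the plus strand, Serpinb9b chr13:33027164-33027463 plus, Serpinb6a chr13:34002745-34003044 minus, and Serpinb2 chr1:107511173-107511472 plus.
Serpinb9: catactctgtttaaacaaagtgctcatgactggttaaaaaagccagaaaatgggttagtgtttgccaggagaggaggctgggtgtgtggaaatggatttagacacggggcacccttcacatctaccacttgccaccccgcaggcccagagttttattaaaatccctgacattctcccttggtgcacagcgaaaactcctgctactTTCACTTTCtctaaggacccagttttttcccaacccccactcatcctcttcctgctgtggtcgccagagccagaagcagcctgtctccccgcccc
Serpinb9b: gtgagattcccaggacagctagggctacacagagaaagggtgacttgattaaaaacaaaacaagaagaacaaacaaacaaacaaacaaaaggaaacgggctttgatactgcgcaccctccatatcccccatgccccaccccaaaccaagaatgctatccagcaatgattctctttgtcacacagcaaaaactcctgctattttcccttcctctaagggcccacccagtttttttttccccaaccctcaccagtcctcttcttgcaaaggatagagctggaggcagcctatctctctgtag
Serpinb6a: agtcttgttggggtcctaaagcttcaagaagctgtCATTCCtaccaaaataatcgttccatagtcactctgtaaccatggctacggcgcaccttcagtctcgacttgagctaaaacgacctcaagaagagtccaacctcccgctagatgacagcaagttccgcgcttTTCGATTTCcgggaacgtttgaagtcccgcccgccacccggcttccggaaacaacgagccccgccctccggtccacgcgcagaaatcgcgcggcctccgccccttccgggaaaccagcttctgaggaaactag
Serpinb2: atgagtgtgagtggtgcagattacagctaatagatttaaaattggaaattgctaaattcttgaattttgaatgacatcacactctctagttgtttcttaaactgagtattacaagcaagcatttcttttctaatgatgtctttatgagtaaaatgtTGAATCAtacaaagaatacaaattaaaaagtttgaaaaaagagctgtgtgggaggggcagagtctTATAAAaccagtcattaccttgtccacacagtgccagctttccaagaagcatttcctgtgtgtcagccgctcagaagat

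In the Serpinb9 window the GAAANNGAA match lies on the minus strand at positions -45 to -37, counted from the annotated start. Serpinb9b, the tandem copy next to it, has no match to any of the 5 motifs. A global alignment paired 278 bases of both windows, 67.3% of them identical, and within the 9 bases of the Serpinb9 match it gave the substitutions A209C and T213C (Serpinb9 base, position from 1 at the window's first base, Serpinb9b base). The first 30 bases after the Serpinb9b start were found in none of its GENCODE M21 transcripts, while those of the other 7 windows were found. An exact match was required, so a start annotated only a few bases before that of the transcript would also be missed. Serpinb6a has GAAANNGAA at -83 to -75 and GGAATG at -215 to -210, both on the minus strand, and holds 25 CpG pairs against a median of 7 over all windows. A second annotated start of Serpinb6a has GAAANNGAA at 4 to 12. Serpinb2 has TATAAA at -29 to -24 and TGANTCA at -94 to -88, and its second window covers the same matches. The Serpinb8 window holds TGANTCA at -23 to -17 and at 13 to 19, and the Serpinb6b window holds no match. Of all 32851 windows, 7.8% hold TGANTCA, 14.7% GGAATG, 13.6% TATAAA, 8.6% GAAANNGAA and 8.5% the NF-kappaB motif, which none of the 8 windows holds. A match describes letters in the window and shows no binding.

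Serpinb9 (ENSMUSG00000045827, GRCm39 chromosome 13, 33187233 to 33201940, plus strand) encodes the granzyme B inhibitor. It had 267, 338 and 247 counts in the knockdown libraries, or 23.8, 33.04 and 22.4 CPM, against 168, 168 and 145 counts in the controls, or 16.3, 14.8 and 11.8 CPM. All 3 knockdown libraries lay above all 3 controls, and knockdown replicate 2 stood above the other two. The means were 26.4 ± 5.80 CPM in knockdown and 14.3 ± 2.30 CPM in control libraries (SD, n = 3). This is 1.85-fold, or 0.89 ± 0.16 (SE) as a log2 fold change, which ranked 50 of 13372 tested genes from the top. Its scatter between replicates was wide for its level, with a biological coefficient of variation of 10.7% against 5.37% on the trend over all genes. Without knockdown replicate 2 the log2 fold change was 0.70, the lowest of all alternatives.

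Serpinb9b (ENSMUSG00000021403, chromosome 13, 33211399 to 33225867, plus strand) lies next to Serpinb9 and encodes the granzyme M inhibitor. It had 89, 86 and 78 counts in knockdown and 51, 57 and 47 in control libraries, or 7.93, 8.41 and 7.06 CPM in knockdown against 4.94, 5.02 and 3.82 CPM in control. The groups did not overlap, and the replicates of each group lay closer together than for Serpinb9 in the knockdown libraries (coefficient of variation 8.74% for Serpinb9b and 21.97% for Serpinb9). The log2 fold change was 0.77 ± 0.15 (SE), or 1.70-fold. The ratio of Serpinb9 to Serpinb9b per kilobase of exon was 3.23 ± 0.48 in knockdown and 2.98 ± 0.17 in control libraries (SD, n = 3), and the groups overlapped in this ratio. Of 3423 windows of 50 bases along the Serpinb9 transcript, 13 also occur in Serpinb9b and in no other gene, so the sequences that cannot tell the 2 copies apart are short.

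Serpinb6a (ENSMUSG00000060147, chromosome 13, 34101901 to 34186777, minus strand) encodes the widely expressed inhibitor of cathepsin G-like proteases, a role known best for its human counterpart. It was the most abundant member by count, with 262, 249 and 223 CPM in knockdown and 202, 168 and 148 CPM in control libraries. The groups did not overlap, and knockdown replicate 3 and control replicate 1 came nearest to each other. The means were 245 ± 19.7 CPM in knockdown and 173 ± 27.7 CPM in control libraries (SD, n = 3). This is 1.42-fold, or 0.50 ± 0.10 (SE) as a log2 fold change. Of its 5409 exon bases, 1587 (29.3%) are covered on the other strand by exons of Nqo2, Ripk1 and the noncoding 1110046J04Rik, and the sources used here do not say whether counting used the strand. Of the 50-base windows of its transcript, 20.8% occur in other genes on either strand, 1.81% in other Serpinb genes. Of these 333 shared windows, most lie in the overlapping 1110046J04Rik, with 290, so this share largely repeats the exon overlap. Those 3 overlapping genes held 1116, 976 and 86 counts over all libraries, against 7950 counts for Serpinb6a in the knockdown libraries and 5816 in the controls. Nqo2 had 17.8 ± 1.21 CPM in knockdown and 15.8 ± 1.35 CPM in control libraries (SD, n = 3; log2 fold change 0.17, adjusted p = 0.231 in edgeR). Ripk1 had 13.2 ± 1.78 CPM in knockdown and 16.2 ± 1.12 CPM in control libraries (SD, n = 3; log2 fold change -0.30, adjusted p = 0.0681 in edgeR).

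Serpinb6b (ENSMUSG00000042842, chromosome 13, 33149192 to 33163050, plus strand) encodes the mouse granzyme A inhibitor. It had 94.8, 98.8 and 97.3 CPM in knockdown and 89.6, 84.5 and 76.2 CPM in control libraries. The groups did not overlap, and the difference was the smallest among the tested members, a log2 fold change of 0.22 ± 0.07 (SE) or 1.16-fold. It was no longer past the threshold when any single library other than control replicate 1 was left out (log2 fold changes 0.15 to 0.24), with totals alone as scaling (0.16), with the replicate block, or after correction for GC content and transcript length (0.13). The ratio of Serpinb6a to Serpinb6b per kilobase of the deposited exon length was 1.16, 1.05 and 0.96 in knockdown and 0.94, 0.83 and 0.81 in control libraries, so the lowest knockdown library lay just above the highest control.

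Serpinb2 (ENSMUSG00000062345, chromosome 1, 107439153 to 107463208, plus strand) encodes an inhibitor of the urokinase-type plasminogen activator that is found mainly inside cells. It had 85, 113 and 90 counts in knockdown and 57, 42 and 35 in control libraries, or 7.57, 11.05 and 8.15 CPM in knockdown against 5.52, 3.70 and 2.84 CPM in control. The groups did not overlap, with knockdown replicate 2 and control replicate 1 the highest of their groups, as for Serpinb9. The log2 fold change of 1.16 ± 0.21 (SE), or 2.24-fold, was the largest of the members and ranked 13 of 13372. Serpinb10, whose exons share 275 bases with Serpinb2 on the same strand, had no count.

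Serpinb1a (ENSMUSG00000044734, chromosome 13, 33026075 to 33035168, minus strand), an inhibitor of neutrophil elastase and proteinase 3, had counts near 0 in every library. It had 5, 4 and 3 counts in knockdown and 5.33, 4 and 7 in control libraries, too few to test, and the summed ratio was 0.78 with a 95% counting interval of 0.34 to 1.77. Serpinb8 (ENSMUSG00000026315, chromosome 1, 107517736 to 107538214, plus strand), whose human counterpart inhibits furin, had 4, 4 and 6 counts in knockdown and 9, 3 and 6 in control libraries. Its summed ratio was 0.81, with a 95% counting interval of 0.37 to 1.73. The groups overlapped for both genes, and a difference was not detectable at this depth.

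**Figure D1:**
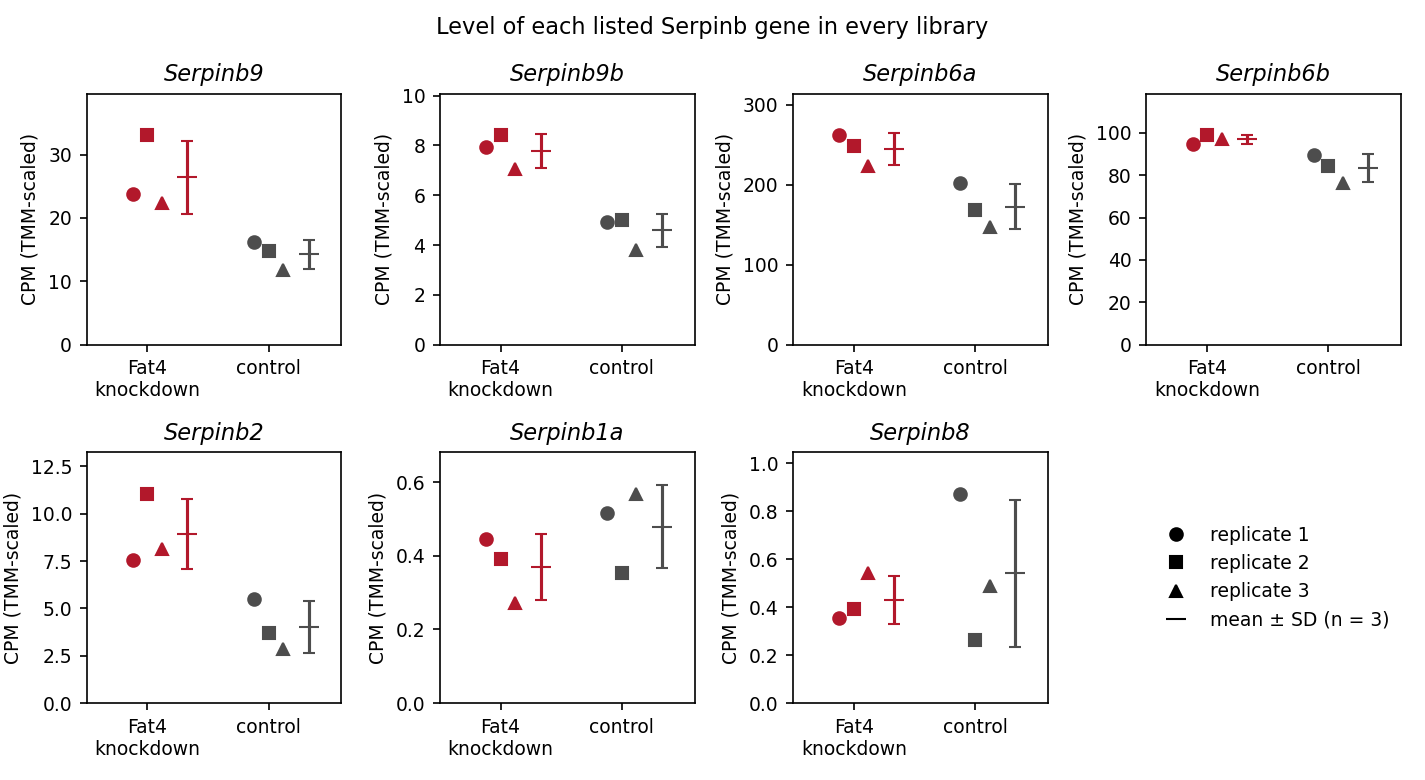
Level of each listed Serpinb gene, in CPM with TMM-scaled totals on linear axes that start at 0, in 3 Fat4 knockdown libraries (red) and 3 control libraries (grey). Symbols mark the replicate number and bars the mean ± SD; the groups do not overlap for Serpinb9, Serpinb9b, Serpinb6a, Serpinb6b and Serpinb2, and overlap for Serpinb1a and Serpinb8.

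Of the 7 members, 5 had enough counts to be tested, and all 5 were past an adjusted p of 0.05 and higher in knockdown, with groups that did not overlap. Over all 13372 tested genes, 17.4% were past that threshold, 8.94% higher and 8.44% lower in knockdown, and 17.4% had all knockdown libraries above all controls. The members were selected on this contrast, so nothing is read from their count against that background. Their median log2 fold change was 0.77, against -0.01 over all tested genes. Control replicate 3 was the lowest library for all 5. Control replicate 1 was the highest control for 4 of them and second for Serpinb9b. Knockdown replicate 2 was the highest library for 4 of them, and knockdown replicate 1 for Serpinb6a. The summed level of all 29 Serpinb rows was 397, 401 and 359 CPM in knockdown and 321, 277 and 243 CPM in control libraries. Without control replicate 1, whose omission left 3077 changed genes in the whole table, against 2324 with all libraries, the log2 fold changes were 0.99 for Serpinb9, 0.83 for Serpinb9b, 0.63 for Serpinb6a, 0.28 for Serpinb6b and 1.45 for Serpinb2. Without control replicate 3 they were 0.76 for Serpinb9, 0.64 for Serpinb9b, 0.40 for Serpinb6a, 0.15 for Serpinb6b and 0.95 for Serpinb2. The transcripts of Serpinb2, Serpinb9, Serpinb6b and Serpinb9b held 39.3%, 42.1%, 44.1% and 44.2% G and C and that of Serpinb6a 50.3%, against a median of 49.4% over tested genes. After correction for GC content and length, the log2 fold changes were 1.04 for Serpinb2, 0.82 for Serpinb9, 0.72 for Serpinb9b and 0.45 for Serpinb6a.

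**Figure D2:**
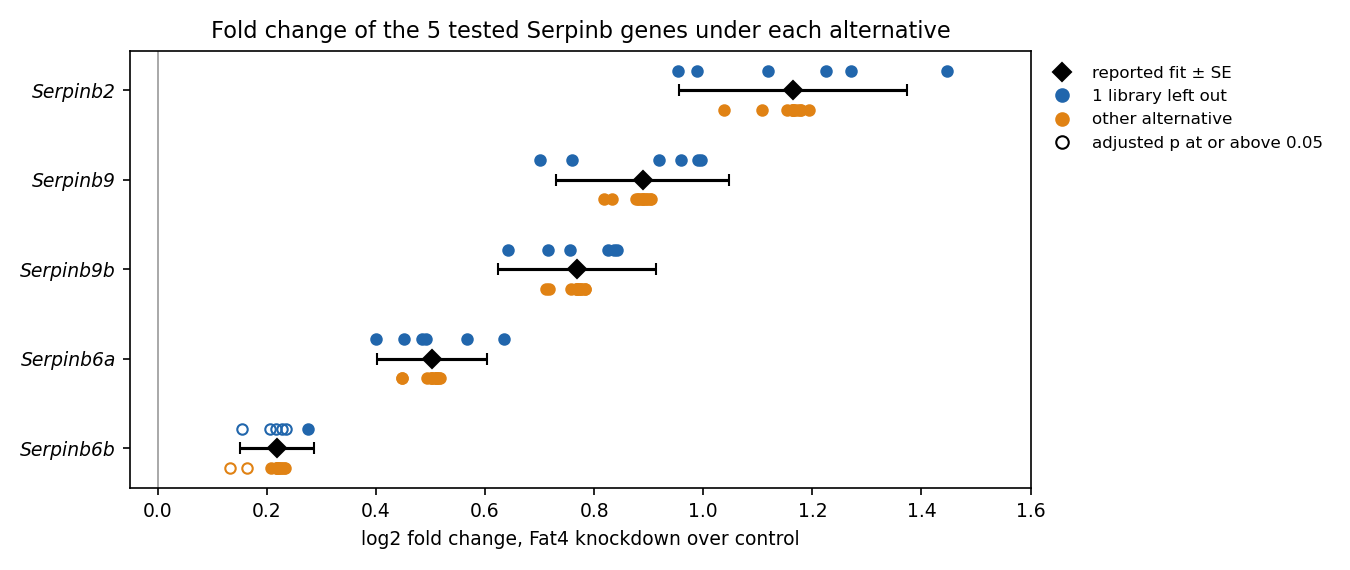
Log2 fold change, Fat4 knockdown over control, of the 5 tested Serpinb genes: black diamonds with bars give the reported value ± SE, blue points the fits without 1 library and orange points the other alternatives. Open points have an adjusted p at or above 0.05, and they occur for Serpinb6b only.

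Levels of different genes were compared per kilobase of the deposited exon length, and Serpinb6a and Serpinb6b were far above the rest. Serpinb6a had 45.2 ± 3.64 CPM per kilobase in knockdown and 31.9 ± 5.12 in control libraries, and Serpinb6b had 42.9 ± 0.90 in knockdown and 36.9 ± 3.0 in control libraries (SD, n = 3). The ranges of these 2 genes overlapped in both groups on that length. Within single libraries, Serpinb6b was the higher of the 2 in every control and in knockdown replicate 3. The exon length of Serpinb6a is 5409 bases, while its longest protein-coding GENCODE M21 transcript has 1654 bases. Per kilobase of that transcript, a choice made after seeing the data, Serpinb6a had 148 ± 11.9 CPM in knockdown and 104 ± 16.7 CPM in control libraries (SD, n = 3), above Serpinb6b with 44.2 ± 0.93 CPM in knockdown and 38.05 ± 3.10 CPM in control libraries. Serpinb9 followed with 7.55 ± 1.66 CPM per kilobase in knockdown and 4.09 ± 0.66 in control libraries, near the median of tested genes, which was 4.73 in knockdown and 4.78 in control. Serpinb2 had 3.798 ± 0.79 and Serpinb9b 2.33 ± 0.20 in knockdown libraries, without overlap, against 1.71 ± 0.58 and 1.37 ± 0.20 in controls, with overlap. Within every library Serpinb9b lay below Serpinb2. The ratio of Serpinb9b to Serpinb2 was 0.73, 0.53 and 0.61 in knockdown and 0.63, 0.95 and 0.94 in control libraries. Serpinb1a had 0.16 ± 0.04 in knockdown and 0.21 ± 0.05 in control libraries. Serpinb8 had 0.09 ± 0.02 in knockdown and 0.11 ± 0.06 in control libraries. The levels of these 2 genes overlapped in the controls. In the knockdown libraries they came as near as 0.118 for Serpinb1a, from 3 counts, and 0.113 for Serpinb8, from 6 counts, both in replicate 3. At so few counts no order of the 2 genes is read from this.

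The members span a chromosome 13 cluster of 17 Serpinb rows from 33026075 to 34186777 and a chromosome 1 cluster of 12 rows (GRCm39). Of the 22 other Serpinb rows, 17 had no count in any library, and by counting error alone such a 0 still permits 0.253 to 0.291 CPM in a library, and the other 5 had at most 4.83 counts summed over all 6 libraries. Serpinb9c to Serpinb9h, further copies of the granzyme inhibitor, and the keratinocyte serpins of the Serpinb3 group were among these rows with few or no counts. Summing all 8 rows of the Serpinb9 subfamily gave a log2 fold change of 0.86 ± 0.14 (SE), and the 5 rows of the Serpinb6 subfamily 0.42 ± 0.08. The tested protein-coding genes next to the Serpinb genes did not pass the threshold. On chromosome 13, Nqo2, given with Serpinb6a above, lies within the span of Serpinb6a, so of the 2 neighbours counted there only Wrnip1 lies outside that cluster. Ripk1, whose exons also overlap Serpinb6a, was not counted as a neighbour, and its values are given with Serpinb6a above. Wrnip1, beyond Serpinb1a, had 29.6 ± 0.35 CPM in knockdown and 28.8 ± 2.16 CPM in control libraries (SD, n = 3; log2 fold change 0.04, adjusted p = 0.800 in edgeR). Vps4b on chromosome 1 had a log2 fold change of 0.05 (edgeR adjusted p = 0.619). Cdh7, the other flanking gene on chromosome 1, had no count.

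**Figure D3:**
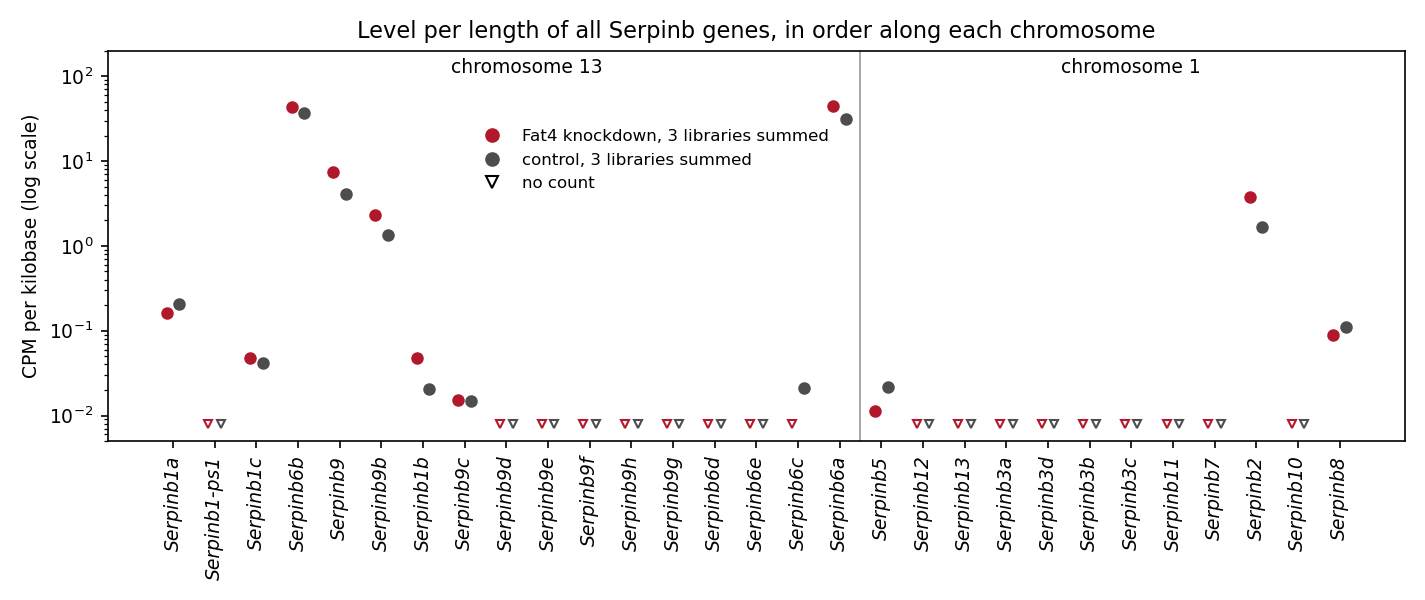
Level of all 29 Serpinb rows in order along chromosomes 13 and 1, in CPM per kilobase of exon on a log axis, with the 3 Fat4 knockdown libraries (red) and the 3 control libraries (grey) each summed. Open triangles mark rows with no count in that group; Serpinb6a and Serpinb6b are highest, near 45.2 and 42.8 in knockdown.

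Markers of lymphocytes, neutrophils and mast cells, which are known to carry these inhibitors, had few counts. All 10 cytotoxic lymphocyte markers lay under 1 CPM and summed to 0.098 to 0.267 CPM in knockdown and 0 to 0.291 CPM in control libraries, with Cd8a, Ncr1 and Prf1 at 0. The 7 neutrophil markers summed to at most 0.098 CPM in knockdown and 0.291 CPM in control, with Mpo, S100a9, Ly6g and Ngp at 0. The 5 mast cell markers summed to 0.089 to 0.098 CPM in knockdown and 0.097 to 0.176 CPM in control, with Cpa3, Mcpt4, Tpsb2 and Cma1 at 0. The 11 macrophage and dendritic markers summed to 7.04 to 9.69 CPM in knockdown and 7.47 to 8.43 CPM in control libraries, almost all from Cd68 and Cd14, and Adgre1, Itgam, C1qa and Itgax were at 0. The 6 keratinocyte and epithelial markers summed to 301 to 315 CPM in knockdown and 286 to 299 CPM in control libraries, nearly all from Krt14, with 296 ± 8.04 CPM in knockdown and 281 ± 8.18 CPM in control libraries (SD, n = 3). Krt1 was at 0, Epcam and Cdh1 lay under 1 CPM, and none of the 6 was past the threshold. The endothelial and mesothelial sums, given with the libraries above, were lower in knockdown while the 5 Serpinb genes were higher, and their part in the Serpinb values was not tested.

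Proteases that clade B serpins are known to bind, in mouse or another species, mostly had few or no counts. The list of 28 genes also holds Prf1, which encodes the pore-forming perforin and not a protease. Of the 28 listed, 27 were in the table, 12 had no count, among them Gzma, Ctsg and Prf1, and 6 could be tested. Gzmb, the target of Serpinb9, had a single count in all 6 libraries, and Gzmm, the target of Serpinb9b, had 0.30 ± 0.13 CPM in knockdown and 0.38 ± 0.13 CPM in control libraries (SD, n = 3). Of the tested 6, 1 rose, 0 fell and 5 did not pass, with a median log2 fold change of -0.06, against 17.4% past the threshold and a median of -0.01 over all tested genes. Ctsl, the lysosomal cathepsin L, rose to 305 ± 4.70 CPM in knockdown, against 272 ± 5.68 CPM in control libraries (SD, n = 3; log2 fold change 0.17, adjusted p = 0.0402 in edgeR). That call was lost without any single library other than control replicate 1 (adjusted p up to 0.154), with totals alone as scaling and without the filter on low counts. Plau, the urokinase that Serpinb2 inhibits, had 2.67 ± 0.13 CPM in knockdown and 1.91 ± 0.56 CPM in control libraries (SD, n = 3; log2 fold change 0.50, adjusted p = 0.151 in edgeR). Plat, the tissue plasminogen activator, had a log2 fold change of -0.27 (edgeR adjusted p = 0.144). Furin, bound by human SERPINB8, had -0.14 (edgeR adjusted p = 0.253).

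Genes of the granzyme death pathway list, most of which act in the target cell once granzymes have entered, were all tested. The list also holds a receptor proposed for granzyme uptake and genes of the death receptor route. Of 31 listed, 3 rose, 2 fell and 26 did not pass, with a median log2 fold change of -0.003, against 17.4% past the threshold over all tested genes. The number that rose was 0 without control replicate 2, control replicate 3, knockdown replicate 1 or knockdown replicate 2. Apex1, a DNA repair nuclease that granzyme A cleaves, fell to 105 ± 7.20 CPM in knockdown, against 154 ± 1.0 CPM in control libraries (SD, n = 3; log2 fold change -0.55, adjusted p = 5.9e-05 in edgeR), and stayed past the threshold in all 18 alternatives. Cycs, which encodes cytochrome c, rose by a log2 fold change of 0.22 (edgeR adjusted p = 0.0135), and it missed the threshold without either of control replicates 2 and 3 or knockdown replicates 1 and 2 (adjusted p up to 0.0781) and after GC and length correction (0.0939). Nme1, a nuclease released by granzyme A, rose by a log2 fold change of 0.19 (edgeR adjusted p = 0.0336). The call of Nme1 was lost without any single one of the 6 libraries, with adjusted p-values up to 0.130, with totals alone as scaling and without the filter on low counts. Lmnb1, the lamin B1 of the nuclear envelope, had a log2 fold change of -0.25 (edgeR adjusted p = 0.0339), lost without any single library other than control replicate 1 (adjusted p up to 0.142). The call of Lmnb1 was also lost with the replicate block and after GC and length correction (edgeR adjusted p up to 0.0605). Bid, the granzyme B substrate that opens mitochondria, had 27.1 ± 0.79 CPM in knockdown and 23.8 ± 1.93 CPM in control libraries (SD, n = 3; log2 fold change 0.19, adjusted p = 0.123 in edgeR).

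**Figure D4:**
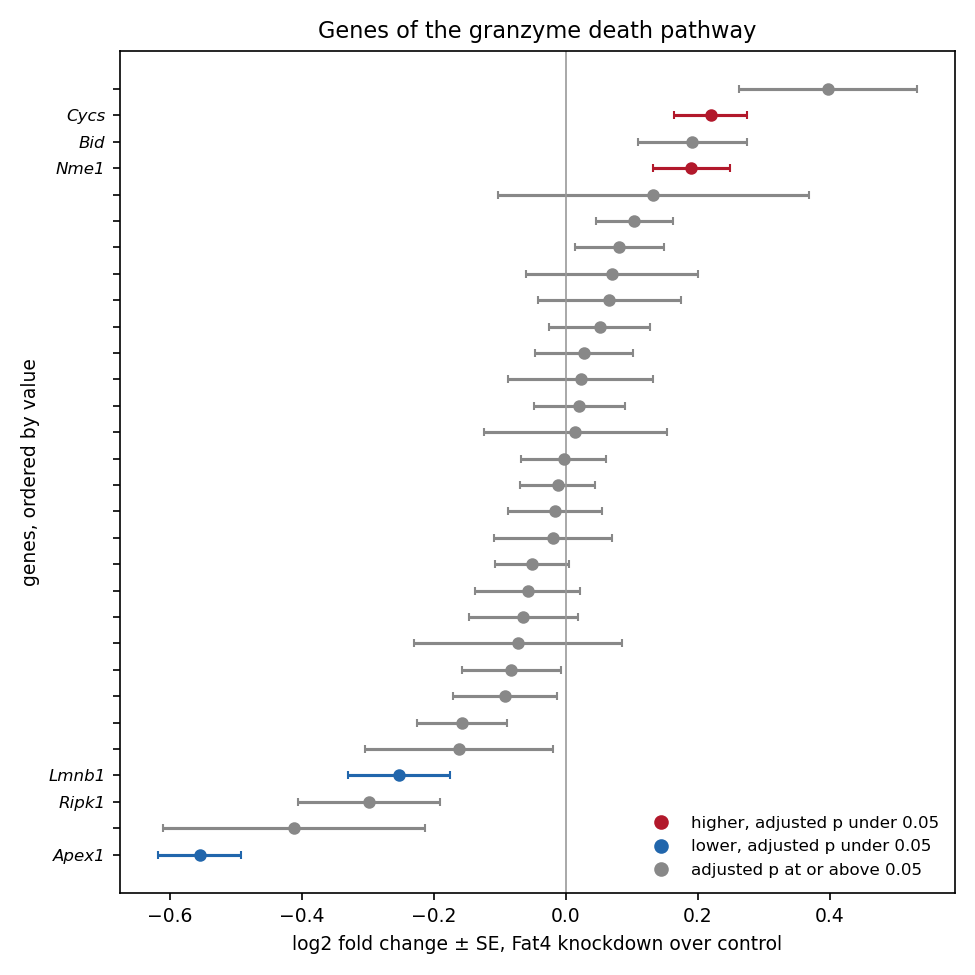
Log2 fold change ± SE, Fat4 knockdown over control, of genes of the granzyme death pathway list, ordered by value, with the genes described in the text labelled. Red points are higher and blue points lower at an edgeR adjusted p under 0.05 over all tested genes; Apex1 is the lowest at -0.55, and the 26 grey genes did not pass.

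Serpins of other clades were mostly without counts. Of 40 rows, 24 had no count and 5 were tested, of which 2 rose, 2 fell and 1 did not pass, with a median log2 fold change of 0.03, against 17.4% past the threshold over all tested genes. Serpinh1, the collagen chaperone HSP47, fell to 1577 ± 59.7 CPM in knockdown, against 1901 ± 106 CPM in control libraries (SD, n = 3; log2 fold change -0.27, adjusted p = 0.00647 in edgeR), and passed in all 18 alternatives. Serpinf1, the secreted factor PEDF, had a log2 fold change of -0.36 (edgeR adjusted p = 0.0370), lost without control replicate 3, knockdown replicate 1 or knockdown replicate 3 (adjusted p up to 0.162). Serpini1, neuroserpin, had 1.91 ± 0.21 CPM in knockdown and 0.88 ± 0.61 CPM in control libraries (SD, n = 3; log2 fold change 1.10, adjusted p = 0.0418 in edgeR), lost without any single library other than control replicate 2 (adjusted p up to 0.178). The Serpina3h row, one of a family of near-identical copies and therefore uncertain, had a log2 fold change of 0.72 (edgeR adjusted p = 0.0363), lost without control replicate 2, control replicate 3, knockdown replicate 1 or knockdown replicate 3 (adjusted p up to 0.157). With the replicate block, the calls of Serpinf1, Serpini1 and Serpina3h were also lost. Those of Serpinf1 and Serpini1 were lost after GC and length correction as well. In DESeq2 none of these genes was called.

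Among 8663 other tested genes with a mean of at least 10 CPM, those whose levels were most like Serpinb9 across the 6 libraries were Polr2k, Znhit3, Rbis, Plscr2 and Bloc1s2. Likeness was the root mean square difference of log2 CPM after centring each gene on its own mean, and it was 0.15 for Polr2k and 0.17 for Bloc1s2. Polr2k had 80.6, 86.5 and 75.6 CPM in knockdown and 58.9, 49.4 and 40.3 CPM in control libraries, with the same library highest in each group as Serpinb9. The log2 fold changes of these 5 genes were 0.66 to 0.71, and they were picked for likeness to a gene chosen on this contrast.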

How the data were processed

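Messenger RNA from 3 Fat4 knockdown and 3 control MCEC libraries was analysed from the authors' deposited table of estimated counts and CPM per gene (GRCm39). Per the submitters' processing notes, reads were handled with STAR 2.7.11, fastp 0.24.0, SAMtools 1.22.1, FastQC 0.12.1 and MultiQC 1.32. The sources used here do not give the counting tool, its strand setting or how reads with several matches were shared. Of the nonzero deposited estimated counts, 28.96% were not whole, and all were rounded. The deposited CPM were not used for tests, and CPM were recomputed from the counts with TMM-scaled totals.

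The whole table without 92 spike-in rows was filtered with filterByExpr (13372 genes) and fitted with edgeR 4.0.16 (robust quasi-likelihood, TMM, Benjamini-Hochberg, threshold 0.05, R 4.3.3). The SE is the log2 fold change divided by the square root of F. Counting intervals are exact at 95%. Exon overlap came from the deposited coordinates, and shared 50-base windows and GC content from GENCODE M21 transcripts (GRCm38). The workflow was tested on simulated data. The 7 members and all gene lists were chosen with earlier results of these data known. Named are the 7 members, flanking genes, Fat4, up to 4 list members per direction past the threshold, and the 5 genes most like Serpinb9; Bid, Plau, Plat, Furin, Gzmb, Gzmm, Ripk1 and the markers were named in addition, after their values were seen. Alternatives were RLE, upper-quartile and total count scaling, DESeq2 1.42.0, limma-voom (limma 3.58.1), omission of each library in turn, a replicate block, either no filter or one of 10 CPM in 3 libraries, counts rounded down, protein-coding genes, GC and length offsets (mgcv 1.9.3), summed subfamilies and, chosen after seeing the data, a non-robust fit and levels per kilobase of the longest transcript. Single values of a few list members are not reported here.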

Additional observations from a re-analysis of the deposited data

How the results depend on the processing

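The members were selected on this contrast, so their values across alternatives describe these libraries and support no call. The log2 fold change was 0.70 to 0.996 for Serpinb9 (18 alternatives), 0.40 to 0.63 for Serpinb6a (18), 0.64 to 0.84 for Serpinb9b (17), 0.95 to 1.45 for Serpinb2 (17) and 0.13 to 0.28 for Serpinb6b (18), which passed in 10. The ratio of Serpinb6a to Serpinb6b per kilobase averaged 1.06 in knockdown and 0.86 in control libraries by deposited exon length, and 3.35 in knockdown and 2.73 in control libraries by longest transcript. The number of listed genes past the threshold was 4 to 5 with 1 library left out, and 3 of the 5 with at least 10 CPM in 3 libraries, a filter that Serpinb9b and Serpinb2 do not reach. Over the whole table, 2324 genes changed, 1535 by DESeq2, and 1029 to 3077 with 1 library left out (1029 without control replicate 2, 1165 without knockdown replicate 2, 1216 without knockdown replicate 1, 1226 without control replicate 3, 1789 without knockdown replicate 3); the cause was not tested.

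With the replicate block the log2 fold change was 0.88 for Serpinb9, 0.77 for Serpinb9b, 0.51 for Serpinb6a, 1.16 for Serpinb2 and 0.22 for Serpinb6b, which then missed the threshold. The labels do not say whether same-numbered libraries were paired. The correlations of their deviations from the group means were -0.20, -0.16 and 0.14 over 8664 genes. Being weak and of mixed sign, they do not decide whether the libraries were paired. Depth limits Serpinb1a, Serpinb8 and Fat4 most, at 12, 14 and 27.5 counts in the knockdown libraries and 16.33, 18 and 63.5 in the controls.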
